A study of Homo sapiens with 4 samples.

Results

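The genes of the ISG15 system and the IFI genes were followed in A549 cells, an established human lung adenocarcinoma line, with and without overexpression of the deubiquitinase USP12. The 10 genes ISG15, UBE2L6, HERC5, HERC6, ISG20, IFI6, IFI27, IFI44, IFI44L and BST2 were taken by gene name from 50868 genes in the count files. Polyadenylated RNA had been sequenced in 4 libraries, of which 2 came from control A549 cells and 2 from A549 cells labelled USP12-overexpressed. In the paper the control cells of this comparison carry the vector without USP12, and USP12 was introduced as a tagged cDNA in a lentiviral vector, so both groups had taken up a vector. Whether the cells were a pool or a clone is not given in the sources used here. All 10 genes were among the 15222 that passed the filter on low counts. IFI27 and BST2 passed only through the control libraries, since neither USP12 library reached the filter's level of 0.696 CPM for them. CPM are counts scaled to library size, without further factors for the filter and with edgeR's TMM factors elsewhere.

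ISG15 is a ubiquitin-like protein that interferon induces and that cells attach to other proteins, a modification called ISGylation. An activating enzyme, a conjugating enzyme and a ligase act in turn, UBA7, UBE2L6 and HERC5 in human cells, and USP18 takes ISG15 off again. ISG20, IFI6, IFI27, IFI44, IFI44L and BST2 belong to the same antiviral programme, which type I and type III interferons switch on through the kinases JAK1 and TYK2 and a transcription factor complex that holds STAT2 and IRF9. That complex binds the interferon-stimulated response element, a DNA motif in the promoters of such genes.

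The core of this motif was searched in the promoters, because the genes are grouped here as interferon-stimulated. The letters searched were GAAANNGAAA on either strand, so that a match on the opposite strand reads TTTCNNTTTC, and matches were allowed to overlap each other. The windows were RefSeq promoters of build GRCh38.p14, from 250 bases before to 50 bases after the start site, and all 10 genes were matched by symbol. For genes with 2 windows, the one at the start of the canonical GENCODE transcript was used. A match was present for 8 of the 10 genes, against 4.38% of 27305 genes with a window. UBE2L6 and HERC6 had no match in this window, and UBE2L6 had none in its other window. A match is a run of letters, and no binding was measured here.

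In the stretches below, written 5′ to 3′ on the strand of the gene and lying wholly before its start site, the capitals mark the match nearest to the start and any other match inside the stretch. ISG15 and BST2 hold 2 overlapping matches each. IFI27 shows 1 match in each orientation, and IFI6 shows 2 of its 3 matches.
ISG15, chr1:1013359-1013424, plus strand: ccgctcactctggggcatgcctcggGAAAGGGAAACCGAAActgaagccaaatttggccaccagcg
HERC5, chr4:88457020-88457079, plus strand: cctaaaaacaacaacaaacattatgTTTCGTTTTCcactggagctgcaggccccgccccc
ISG20, chr15:88638937-88638966, plus strand: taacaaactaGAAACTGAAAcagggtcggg
IFI6, chr1:27672251-27672310, minus strand: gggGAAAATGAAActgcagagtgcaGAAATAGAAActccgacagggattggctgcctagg
IFI27, chr14:94110616-94110675, plus strand: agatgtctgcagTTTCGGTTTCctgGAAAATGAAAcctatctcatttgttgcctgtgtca
IFI44, chr1:78649761-78649790, plus strand: gcacactgagTTTCAGTTTCctttctctga
IFI44L, chr1:78620365-78620394, plus strand: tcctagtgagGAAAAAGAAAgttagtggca
BST2, chr19:17405738-17405767, minus strand: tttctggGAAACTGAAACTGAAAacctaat

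The last base of the nearest match lay 98 bases before the start site in ISG15, 65 in HERC5, 60 in ISG20, 84 in IFI6, 165 in IFI27, 51 in IFI44, 64 in IFI44L and 115 in BST2. In GENCODE 44 the stretches of ISG15 and IFI27 lie inside the annotated span of the same gene and outside its exons, and those of ISG20 and IFI44L overlap exons of the same gene. The IFI6 stretch lies within an opposite-strand noncoding gene, outside its exons. The BST2 stretch overlaps exons of BISPR and MVB12A on the opposite strand.

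**Figure D1:**
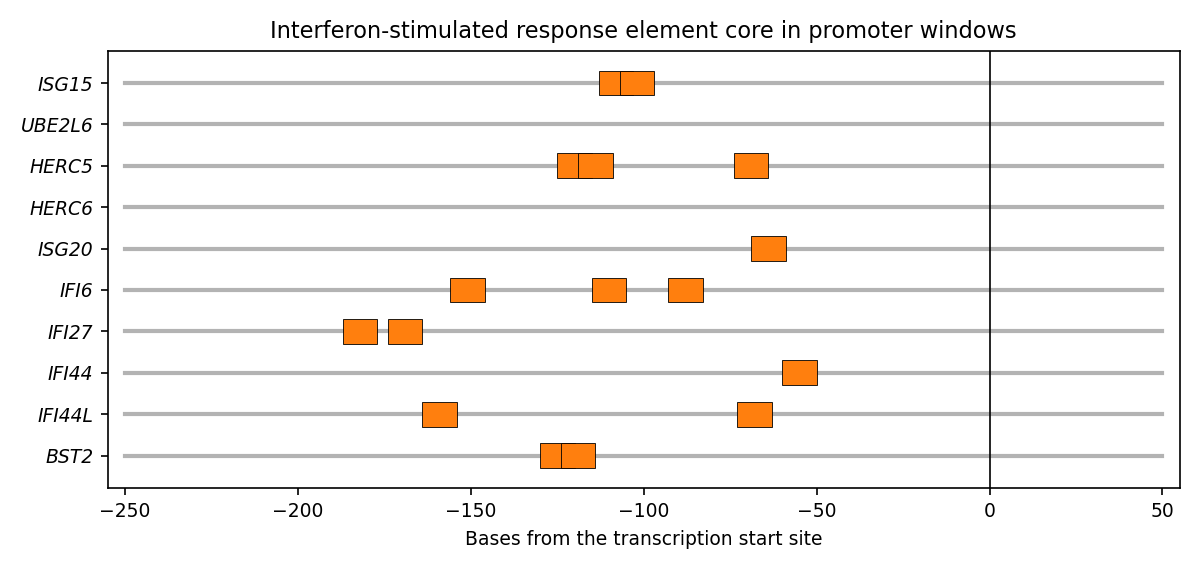
Matches to the interferon-stimulated response element core (orange boxes, 10 bases long) in the promoter window of each gene (grey line), against distance from the transcription start site in bases. Matches are seen for 8 of the 10 genes, all before the start site, and none for UBE2L6 and HERC6.

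The libraries held between 14280081 and 16305356 uniquely mapped fragments on genes, and 3 counts corresponded to between 0.166 and 0.227 CPM, a floor that covers counting error only. The transgene's target was checked first: USP12 was at 15.2 and 34.4 CPM without and at 1745 and 2235 CPM with overexpression. The log2 fold change of USP12 was 6.32 (SE 0.57, Benjamini-Hochberg adjusted p = 0.0975, edgeR quasi-likelihood). The control libraries stood apart from each other, with an SD of the log2 ratio of 1.32 over the tested genes, against 0.62 for the USP12 libraries. The column heading of control replicate 1 starts with a different date-like number from those of the remaining libraries, and a batch of 1 library cannot be told apart from that culture. Of 6 epithelial markers all were present in all libraries. Their summed levels were 12900 and 7474 CPM in the control and 7316 and 6794 CPM in the USP12 libraries. For 4 of the 6, both USP12 libraries lay below both controls, as did 16.9% of the tested genes (KRT19 had a log2 value of -2.14, SE 0.66). Of 6 alveolar type 2 markers, the surfactant genes SFTPC, SFTPB and SFTPA1 had at most 1 count and NKX2-1 at most 5, NAPSA had 7 to 26 counts, and ABCA3 had 1058 to 1522. Of 3 endothelial markers, CDH5 had 136 and 96 counts in the control and 2 and 5 with USP12, PECAM1 had 68 and 56 against 4 and 14, and VWF had at most 3. CDH5 and PECAM1 were thus lower along with the 10 genes, in both USP12 libraries against both controls, as were ITGAM and LYZ of the leukocyte markers below. The 3 endothelial markers summed to 15.4 and 8.59 CPM against 0.432 and 1.32 CPM, and their part in the result was not tested. Of 4 fibroblast markers, DCN was at 0 and COL1A2 had at most 2 counts. COL1A1 had 172 and 47 counts in the control and 262 and 211 with USP12, and PDGFRB had 0 and 0 against 6 and 11. The fibroblast list summed to between 2.72 and 19.3 CPM. Of 6 leukocyte markers, PTPRC and CD3E had at most 1 count. CD68 had 1044 and 844 counts in the control and 881 and 686 with USP12, and CD14 had 424 and 85 against 185 and 174. ITGAM had 143 and 43 against 23 and 31, and LYZ had 11 and 27 against 1 and 3. The 6 leukocyte markers summed to 122.7 and 55.4 CPM in the control and 78.5 and 61.9 CPM in the USP12 libraries. In RNA from whole cultures, fewer cells expressing a gene and less RNA per cell cannot be told apart.

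All 10 genes had a lower mean level in the USP12 libraries than in the control libraries. For 7 of them, ISG15, UBE2L6, HERC5, ISG20, IFI6, IFI27 and BST2, both USP12 libraries lay below both control libraries, as did 16.9% of the tested genes. Among these 7, IFI27 and BST2 passed the filter only through the control libraries. HERC6, IFI44 and IFI44L overlapped between the groups. The controls differed widely for several of the genes. Control replicate 2 was at least 4-fold above control replicate 1 for 6 of the 10 genes (HERC5, HERC6, IFI27, IFI44, IFI44L and BST2), against 6.03% of the tested genes.

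Set against control replicate 1 alone, both USP12 libraries were lower for the same 7 genes (42.3% of the tested genes), and against control replicate 2 alone for 10 of 10 (40.2%). The mean of the USP12 libraries was at least 4-fold below control replicate 1 for 5 genes, ISG15, ISG20, IFI6, IFI27 and BST2 (4.18% of the tested genes), and at least 4-fold below control replicate 2 for 9, all but UBE2L6 (2.56%). The USP12 libraries were at least 4-fold apart for 0 of the 10 genes (1.58%). IFI27 and BST2, which passed the filter only through the control libraries, are in each count of lower genes here too. These comparisons of single libraries have no replicate check and are descriptions.

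No gene of the 10 passed an adjusted p of 0.05 in edgeR's quasi-likelihood test (0 of 10, and 0% of the tested genes, while 1155 tested genes had an unadjusted p under 0.05). A criterion without adjustment, p at most 0.05 and the fitted log2 value at -1 or below, was met by 8 of the 10, all but HERC6 and IFI44L, against 4.41% of the tested genes. The edgeR exact test called 5 at an adjusted p under 0.05, BST2, IFI27, IFI6, ISG15 and ISG20 (1.72% of the tested genes were lower by this test). The DESeq2 Wald test called those 5 and IFI44 (1.79%). IFI27 and BST2 are among the genes called by the criterion and by both of these tests. They passed the filter only through the control libraries, which favours a lower value with USP12. Apart from them, the exact test called IFI6, ISG15 and ISG20. The median log2 fold change of the 10 genes was -3.46, and -0.06 over all tested genes. BST2 has the lowest value of the 10 both as fitted and at the low end of its counting interval, so its uncertain size does not enter this median.

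ISG15 (ENSG00000187608, chromosome 1 of GRCh38, 1001138 to 1014540), the modifier itself, had 225 and 1179 counts in control replicates 1 and 2 and 30 and 16 in the USP12 libraries, or 17.03 and 65.3 against 2.16 and 1.11 CPM. Both USP12 libraries lay far below the lower control. The fitted log2 fold change was -4.65 (SE 0.85, adjusted p = 0.210, edgeR quasi-likelihood). Scaled to the length of its canonical transcript, the level of ISG15 was above that of 81.3 and 96.3% of the tested genes in the control libraries, and above 40.7 and 26.3% in the USP12 libraries. Other genes lie on the opposite strand within the span of ISG15. The paper names a stranded library kit for A549 cells, but how strand was used in the counting is not given in the sources used here.

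UBE2L6 (chromosome 11, 57551656 to 57568284), the conjugating enzyme that passes ISG15 on, had 851 and 1608 counts in the control and 482 and 505 counts in the USP12 libraries, or 64.4 and 89.1 against 34.7 and 35.0 CPM. The groups did not overlap, but the difference was the smallest of the 10, with a log2 fold change of -1.14 (SE 0.38, adjusted p = 0.505, edgeR quasi-likelihood). UBE2L6 remained above 84.9 and 85.5% of the tested genes per length in the USP12 libraries, and was there the most abundant of the 10. In FPKM (CPM divided by the length of the canonical transcript in kilobases), UBE2L6 was at 28.5 and 28.7 in the USP12 libraries, where ISG15 was at 3.39 and 1.74 and the ligase HERC5 at 0.554 and 1.07.

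HERC5 and HERC6 are neighbouring genes on chromosome 4 (88457119 to 88506163 and 88378739 to 88443097) that encode HECT-type ligases, of which HERC5 is the main ISG15 ligase of human cells. HERC5 had 60 and 414 counts in the control and 27 and 54 in the USP12 libraries, or 4.54 and 22.9 against 1.94 and 3.74 CPM. Its higher USP12 library came close to control replicate 1, and the log2 fold change was -2.27 (SE 0.87, adjusted p = 0.60, edgeR quasi-likelihood). HERC6 had 74 and 1102 counts in the control and 89 and 125 in the USP12 libraries, or 5.60 and 61.1 against 6.41 and 8.66 CPM. Control replicate 1 was here the lowest of the libraries, and only control replicate 2 was high. The fitted value of HERC6 was -2.15 (SE 1.03, adjusted p = 0.761, edgeR quasi-likelihood). Without control replicate 2 the log2 fold change was -0.65 for HERC5 and 0.46 for HERC6, so that the direction of HERC6 turned.

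ISG20 (chromosome 15, 88635670 to 88656483), an exonuclease that degrades single-stranded RNA, was the gene whose control libraries lay closest together among those with a difference past 4-fold. It had 1173 and 1108 counts in the control and 149 and 131 in the USP12 libraries, or 88.8 and 61.4 against 10.7 and 9.07 CPM. Control replicate 1 was 8.97 times and control replicate 2 6.20 times the USP12 mean. Its fitted log2 fold change was -2.92 (SE 0.44, adjusted p = 0.179, edgeR quasi-likelihood), and it stayed between -3.14 and -2.63 when each library was left out in turn. ISG20 was also the only one of the 10 genes in which control replicate 2 was below control replicate 1.

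IFI6 (chromosome 1, 27666064 to 27672212), a small hydrophobic protein with antiviral and anti-apoptotic roles, was the most abundant of the 10 genes in the control cells. It had 1713 and 5473 counts in the control and 109 and 70 in the USP12 libraries, or 129.6 and 303.3 against 7.85 and 4.85 CPM. Control replicate 1 alone was 20.4 times the USP12 mean. The log2 fold change was -5.09 (SE 0.62, adjusted p = 0.139, edgeR quasi-likelihood), and between -5.58 and -4.32 with each library left out. Per length, IFI6 was above 96.2 and 99.1% of the tested genes in the control libraries and above 64.5 and 53.2% in the USP12 libraries. It overlaps 2 annotated noncoding genes, 1 on each strand.

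IFI27 (chromosome 14, 94104836 to 94116695), a related small membrane protein, had 42 and 551 counts in the control and 7 in each USP12 library, or 3.18 and 30.5 against 0.504 and 0.485 CPM. The USP12 libraries agreed closely with each other and lay below both controls, which were 9.61-fold apart. The log2 fold change was -5.07 (SE 1.20, adjusted p = 0.302, edgeR quasi-likelihood), and -2.63 without control replicate 2. Its neighbours IFI27L1 and IFI27L2, which encode related proteins, had log2 fold changes of -1.04 and -1.07 (SE 0.53 and 0.70).

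IFI44L and IFI44 lie next to each other on chromosome 1 (78619902 to 78646145 and 78649796 to 78664078) and encode related interferon-induced proteins of the cytoplasm. IFI44 had 14 and 530 counts in the control and 21 and 16 in the USP12 libraries, or 1.06 and 29.4 against 1.51 and 1.11 CPM. IFI44L had 11 and 408 counts in the control and 9 and 23 in the USP12 libraries, or 0.832 and 22.6 against 0.648 and 1.59 CPM. In both genes control replicate 1 lay at the level of the USP12 libraries, and control replicate 2 was 27.7 and 27.2 times control replicate 1, the widest gaps between the controls among the 10. The log2 fold changes were -3.53 (SE 1.40) and -3.38 (SE 1.43), with adjusted p = 0.629 and 0.674 from edgeR's quasi-likelihood fit. Without control replicate 2 they were 0.33 and 0.45.

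BST2 (chromosome 19, 17402939 to 17405630), also called tetherin, a membrane protein that holds budding virus particles on the cell surface, had 112 and 895 counts in control cells, against 1 and 0 counts with USP12. The CPM of the controls were 8.47 and 49.6 CPM, and both USP12 libraries were under the floor of 3 counts. Summed over the libraries, the control level was 912.5 times that of USP12 cells, with a 95% counting interval (exact Clopper-Pearson) from 163.4 to 36080. Against control replicate 1 alone the ratio was 240.1, from 42.2 to 9566. The intervals cover counting error only. The fitted log2 fold change of -9.38 (SE 1.44, adjusted p = 0.182, edgeR quasi-likelihood) rests on that single count and depends on the prior count. Per length, BST2 was above 61.4 and 91.8% of the tested genes in the control libraries.

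Over the 10 genes, the median difference in log2 CPM from control replicate 1 to control replicate 2 was 2.42, and that from USP12 replicate 1 to USP12 replicate 2 was -0.14. It was -1.64 from control replicate 1 to the USP12 mean and -4.33 from control replicate 2. Over all tested genes these medians were 0.01, 0.00, 0.04 and 0.00. The gap between the controls was thus larger than that between control replicate 1 and the USP12 cells for the middle of the group. For 5 genes, ISG15, UBE2L6, ISG20, IFI6 and BST2, it was the other way round: their differences from control replicate 1 were -3.35, -0.88, -3.15, -4.36 and -5.69 on this scale, against 1.93, 0.47, -0.53, 1.23 and 2.53 between the controls.

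Ordered by FPKM, the control cells had IFI6 highest (266.6 on average), followed by ISG15 (64.7), UBE2L6 (63.0), ISG20 (47.4), BST2 (29.0), IFI27 (23.2), IFI44 (9.04), HERC6 (8.83), HERC5 (3.91) and IFI44L (2.01). The step from IFI6 to ISG15 exceeded the range of the 2 libraries, and from there on each gene overlapped with the next. In the USP12 cells the order was UBE2L6 (28.6), IFI6 (7.82), ISG20 (6.25), ISG15 (2.56), HERC6 (2.00), HERC5 (0.809), IFI44 (0.779), IFI27 (0.682), IFI44L (0.192) and BST2 (0.0360, from 1 count). There the ranges of UBE2L6 and IFI6, of ISG20 and ISG15, of HERC6 and HERC5, of IFI27 and IFI44L, and of IFI44L and BST2 did not overlap, and the other neighbours did.

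The remaining genes of ISG15 conjugation and removal had smaller differences than most of the 10. All 7 were tested, 0 passed an adjusted p of 0.05, 1 met the unadjusted criterion (p at most 0.05 and a log2 value at -1 or below), and their median log2 fold change was -0.89. UBA7, the activating enzyme, had 46 and 117 counts in the control and 18 and 32 in the USP12 libraries, with a fitted value of -1.502 (SE 0.67, adjusted p = 0.712, edgeR quasi-likelihood). TRIM25, a further ligase, had a value of -0.89 (SE 0.46), and ARIH1, also a ligase, -0.35 (SE 0.41). USP18, the protease that removes ISG15, had 105 and 826 counts in the control and 129 and 124 in the USP12 libraries. Like HERC6, it was high in control replicate 2 alone, and its fitted value was -1.59 (SE 0.82). USP41, a near copy of USP18, met the criterion with 13 and 34 counts in the control and 2 in each USP12 library. Its value of -3.28 (SE 0.96) was the lowest of the 7, and reads of USP18 and USP41 may have been split between them. ITGAL and ITGB2, the chains of the LFA-1 integrin that binds extracellular ISG15, had values of -0.53 (SE 0.63) and -0.88 (SE 0.43).

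The nearest relatives of the 10 genes in sequence or symbol, HERC1, HERC2, HERC3, HERC4, UBE2L3, ISG20L2, AEN, IFI27L1 and IFI27L2, had log2 fold changes between -1.07 and 0.12, with a median of -0.19 and 0 of 9 by the same criterion. HERC3 (chromosome 4, 88592434 to 88708541), which lies beyond HERC5, had 56 and 75 counts in the control and 79 and 50 in the USP12 libraries. UBE2L3, the close homologue of UBE2L6 that serves ubiquitin, had a value of -0.32 (SE 0.35). Of 4 other genes with an IFI symbol, IFI30 (log2 fold change -1.49, SE 0.45) and IFIH1 (-3.30, SE 1.13) met the criterion. IFI35 (-1.05, SE 0.44) and IFI16 (-0.39, SE 0.61) did not. IFI30 had 360 and 366 counts in the control and 120 in each USP12 library. IFIH1 had 51 and 631 against 14 and 42, and its value was -0.95 without control replicate 2.

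Of 14 genes of the interferon signal upstream, 10 were tested, 0 passed an adjusted p of 0.05 and 1 met the criterion. That gene, IRF7, a transcription factor that is itself interferon-induced, had 191 and 916 counts in the control and 56 and 46 in the USP12 libraries (log2 fold change -3.17, SE 0.72, adjusted p = 0.298, edgeR quasi-likelihood). STAT2 and IRF9, which act together on interferon-stimulated genes, had log2 fold changes of -0.87 (SE 0.37) and -1.05 (SE 0.47). The receptor genes IFNAR1, IFNAR2, IFNLR1 and IL10RB had values between -0.34 and 0.11. The kinase genes JAK1 and TYK2 were at 0.55 (SE 0.38) and -0.64 (SE 0.50), and IRF1 was at -0.75 (SE 0.40). Interferon transcripts were seen mostly in control replicate 2, the library with the highest level of 9 of the 10 genes: IFNL1 had 14 counts there, IFNL2 15, IFNL3 5 and IFNB1 1, against 0 in the other libraries except 1 count of IFNL2 in USP12 replicate 1. IFNL2 and IFNL3 are near-identical copies, so the division of counts between them is uncertain. The part of these transcripts in the level of the 10 genes was not tested.

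The genes outside the 10 with the most similar pattern were IFITM1, OASL, NOSTRIN, IRF7 and ZFP3. Likeness was measured as the Euclidean distance over the 4 libraries between a gene's log2 CPM, centred on its mean, and the mean centred profile of the 10 genes, and was 0.249, 0.399, 0.516, 0.530 and 0.589 in that order, against a median of 3.70 over all tested genes. That mean profile stood at 0.39 and 2.76 for the controls and at -1.56 and -1.59 for USP12 cells. The 10 genes themselves were 1.04 (IFI27) to 3.83 (BST2) from it. IFITM1 had 29.1 and 141.8 CPM in the control and 8.64 and 8.24 CPM in the USP12 libraries. ZFP3 had 11 and 69 counts in the control and 3 and 2 in the USP12 libraries. The latter are at or under the floor of 3 counts, so its likeness rests partly on the prior count.

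**Figure D2:**
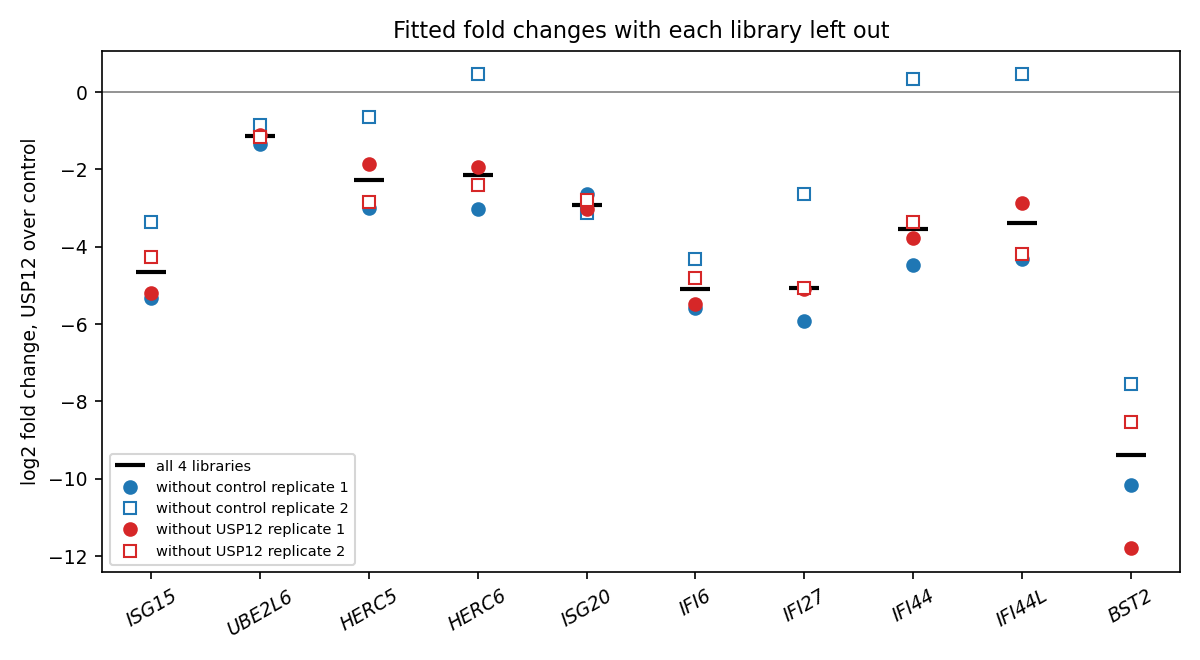
Fitted log2 fold changes of the 10 genes with all 4 libraries (black bars) and with each library left out (blue for a control, red for a USP12 library; circles for replicate 1, open squares for replicate 2). Without control replicate 2 the values of HERC6, IFI44 and IFI44L are above 0, and those of the other 7 genes lie between -7.55 and -0.65.

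With control replicate 2 left out, the median of the 10 log2 fold changes was -1.75, and with control replicate 1 left out it was -4.40. Leaving out a USP12 library moved it to -3.40 or -3.78. In the fit without control replicate 2, 5 of the 10 genes and 13.3% of the tested genes met the unadjusted criterion, against 8 of the 10 and 4.41% with all libraries.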

How the data were processed

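The authors trimmed adaptors and filtered ribosomal reads with Seqtk, mapped to GRCh38 with HISAT2 2.0.4 and counted uniquely mapped fragments per gene with StringTie 1.3.0. The deposited values are these raw counts, 14280081 to 16305356 per library. The A549 libraries were made with a stranded kit, but the annotation release and the strand setting of the counting are not given in the sources used here. Replicates are libraries that the labels number, and nothing says that they came from separate cultures, so p-values measure only the spread between these libraries.

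Counts were filtered (filterByExpr), TMM-scaled and tested with edgeR 4.0.16 in R 4.3.3 (quasi-likelihood, no block, Benjamini-Hochberg over 15222 genes). The SE of a log2 fold change was taken from its F statistic, as its size over the root of F. Log2 CPM used a prior count of 2. The test was checked on simulated counts. Alternatives were DESeq2 1.42.0 size factors or Wald test, no filter, at least 10 counts in every library, the edgeR exact test, a replicate block and leaving out each library. Permuting 2 against 2 libraries cannot give a p under 0.05, so none was run. Where leaving out a library left 1 in its group, that library was assumed to vary like the other group. Positions and lengths came from GENCODE 44 (99.2% of tested genes found) and promoters from RefSeq. Genes named were the 10, USP12, fixed lists and the 5 nearest profiles. Of the lists, 2 genes are not reported here and were left out of the list counts. The genes and lists were chosen with earlier results of these data known.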

Additional observations from a re-analysis of the deposited data

How the results depend on the processing

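Among the 10 genes, the number lower at an adjusted p under 0.05 was 0 in the edgeR quasi-likelihood fit, with DESeq2 size factors and with at least 10 counts in every library, but 9 without a filter on low counts, 6 with the DESeq2 Wald test, and 5 each under the exact test of edgeR and under the replicate block. It was between 2 and 10 with each library left out. Over all tested genes the calls, lower and higher, were 0 and 0 in the first fit, 361 and 167 without a filter, 273 and 133 with the Wald test, 262 and 167 with the exact test and 251 and 153 with the replicate block, and ranged from 28 to 2612 and from 12 to 2550 with each library left out. The genes tested numbered 24800 without a filter and 13319 with at least 10 counts in every library. They numbered 15909 to 16137 with each library left out, and 15222 under the remaining settings. The call counts, among the 10 genes too, therefore cannot be compared directly between settings. Where a library was left out, its group had no replicate, and the calls there are descriptions only. Without a filter, with the block and without either USP12 library, edgeR's prior degrees of freedom came out infinite, so no gene had a spread of its own there.

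By the unadjusted criterion, 671 lower genes became 1173 without a filter, and between 300 and 2134 with each library left out, and the count among the 10 genes ranged from 5 to 10. The median log2 fold change of the 10 genes ranged from -4.40 to -1.75 with each library left out and was -2.62 with the replicate block. USP12 passed an adjusted p of 0.05 at 6.33 without a filter, 6.31 with the Wald test, 6.32 with the exact test and 6.43 with the replicate block, and at 5.86 to 7.06 with each library left out.

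Of 396 single-gene values under the alternatives, 380 kept their sign. With each library left out, the range crossed 0 for HERC6 (-3.02 to 0.46), IFI44 (-4.48 to 0.33), IFI44L (-4.32 to 0.45), USP18 (-2.35 to 0.20), IFI16 (-0.93 to 0.52), IFNAR1 (-0.48 to 0.43), IFNAR2 (-0.03 to 0.30), IFNLR1 (-0.46 to 0.067), TYK2 (-1.08 to 0.045), HERC2 (-0.34 to 0.50), HERC3 (-0.26 to 0.44), ISG20L2 (-0.26 to 0.014) and AEN (-0.44 to 0.20). HERC2 was also at -0.015 with DESeq2 size factors and with the Wald test. The cause was not tested. Same-numbered libraries deviated from their group means with a correlation of 0.152 over genes, and with 2 pairs the number is only a name.

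Counting limits the low genes: BST2 rests on 1 count in the USP12 libraries, and IFI27 on 7 in each. BST2, IFI27 and IFI44L drop out where at least 10 counts are asked of every library.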
